A study of Mus musculus with 4 samples.

Results

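The cartilage collagens measured here were the 8 genes Col2a1, Col9a1, Col9a2, Col9a3, Col10a1, Col11a1, Col11a2 and Col27a1, chosen by gene symbol and all present in each of the 4 samples, out of 18298 genes with a read in any sample. They were compared between cultured primary rib chondrocytes of Mut embryos, genotype Dermo1-Cre;Senp6f/f, and of WT embryos, genotype Senp6f/f. Each group had 2 samples, all from E18.5 embryos on a C57BL/6 background and cultured to passage 1, and both groups carried the floxed Senp6 alleles. Dermo1-Cre is a Cre recombinase made from the Twist2 locus in skeletal progenitors, so that the deletion was not limited to chondrocytes, and WT cells had no Cre. Senp6 encodes a protease that removes SUMO2/3 from proteins. The comparison asks how the RNA of the collagens of cartilage differed in chondrocytes after the loss of Senp6.

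Cartilage owes its tensile strength to thin fibrils whose main component is type II collagen, a trimer of the Col2a1 product. Type XI collagen is built into the fibril and limits its width, and type IX collagen sits on the fibril surface and connects it to other matrix. Type X collagen is a short network-forming collagen of hypertrophic chondrocytes, the enlarged cells next to forming bone, and type XXVII is a further fibrillar collagen made by cartilage. SOX9, together with SOX5 and SOX6, is the transcription factor best known to drive several of these genes. Chondrocytes kept in monolayer are known to lose these collagens over passages and to make more type I collagen, the collagen of bone and fibrous tissue.

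The start regions of 4 genes are shown first, those of type XI because its genes differed from each other, that of Col10a1 because it stood apart from the rest, and that of Col9a1 for type IX. RefSeq promoter windows were listed for 6 of the 8 genes, and Col2a1 and Col9a3 were not listed. The 250 bases before the RefSeq start are given for 4 genes on GRCm38.p6, 5′ to 3′, with 5 motifs in capitals wherever they occurred on either strand. These were the TATA box (TATAAA), a SOX core motif (ACAAAG) with its variant form (ACAATG), the GC box (GGGCGG, on the other strand CCGCCC) and the CCAAT box (CCAAT, on the other strand ATTGG).
Col9a1, chr1:24177360-24177609, plus strand: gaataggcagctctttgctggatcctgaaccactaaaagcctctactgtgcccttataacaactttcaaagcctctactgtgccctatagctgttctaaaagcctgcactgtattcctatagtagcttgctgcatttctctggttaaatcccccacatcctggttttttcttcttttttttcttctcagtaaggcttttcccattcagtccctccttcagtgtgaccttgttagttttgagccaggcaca
Col11a1, chr3:114030290-114030539, plus strand: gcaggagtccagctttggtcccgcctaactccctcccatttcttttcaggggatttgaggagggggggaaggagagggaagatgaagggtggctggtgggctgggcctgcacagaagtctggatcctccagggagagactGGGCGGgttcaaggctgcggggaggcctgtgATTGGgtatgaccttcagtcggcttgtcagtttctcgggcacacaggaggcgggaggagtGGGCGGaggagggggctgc
Col11a2, chr17:34038888-34039137, plus strand: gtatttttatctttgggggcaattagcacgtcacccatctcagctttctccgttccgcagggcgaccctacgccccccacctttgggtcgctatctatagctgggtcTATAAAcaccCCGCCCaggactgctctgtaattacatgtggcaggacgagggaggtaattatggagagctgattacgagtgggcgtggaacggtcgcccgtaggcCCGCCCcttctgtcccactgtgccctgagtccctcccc
Col10a1, chr10:34389731-34389980, plus strand: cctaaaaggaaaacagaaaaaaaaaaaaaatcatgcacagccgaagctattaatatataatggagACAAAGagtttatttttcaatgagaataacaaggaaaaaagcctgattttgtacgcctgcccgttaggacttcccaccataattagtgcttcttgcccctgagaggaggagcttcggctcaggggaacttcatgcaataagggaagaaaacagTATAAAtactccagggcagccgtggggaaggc
The Col11a1 and Col11a2 windows both held the GC box, at 110 and 19 bases before the start in Col11a1 on the strand shown and at 133 and 38 bases in Col11a2 on the other strand. Col11a2 also had TATAAA 143 bases before the start, which Col11a1 had not. Col10a1 had TATAAA 32 bases and ACAAAG 185 bases before its start. The Col9a1 window held none of the 5 motifs. A further Col9a1 start inside the gene, listed separately, had CCAAT 18 bases before it. Over 32851 windows of the same length, GGGCGG was found in 32.7%, CCAAT in 33.8%, ACAAAG in 16.5%, TATAAA in 12.4% and ACAATG in 10.7%. Over the windows of genes with a read here, the shares were 50.8%, 34.7%, 13.5%, 7.98% and 7.12%, in the same order. No occurrence of the motifs overlapped another in these 4 windows.

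RNA was sequenced to 21015873 and 26138537 reads counted on genes in WT replicates 1 and 2 and to 30994579 and 28247146 reads in Mut replicates 1 and 2. The chondrocyte markers Col2a1, Sox9 and Acan were read in every sample, whereas Col1a1 took more of the counts (1.56% to 3.42%) than the 8 cartilage collagens together (0.257% to 0.482%). Senp6 had 1125 and 2326 counts in WT and 1839 and 1126 counts in Mut, and the groups overlapped, but a count per gene cannot show whether the floxed exons were removed. The WT replicates lay at a Euclidean distance of 64.6 from each other over all genes on the log2 CPM scale, close to the 65.5 between WT replicate 2 and Mut replicate 1, and the Mut replicates lay at 45.2. Xist was read 11354 times in Mut replicate 2 and 2 to 5 times in the others, so that the sexes were mixed within Mut. The Mut replicates were therefore not repeats of a single embryo's RNA. The paper counts its in vitro and ex vivo samples as biological replicates, with n = 2 for this sequencing. The labels do not otherwise say whether the replicates came from separate embryos or cultures, and p-values measure the spread between these samples.

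RNA of 7 of the 8 cartilage collagens was lower in both Mut samples than in both WT samples, and Col10a1 was the exception. In mean RPKM, Mut was 4.20-fold below WT for Col11a2 and 3.39- to 3.70-fold below for the 3 type IX genes, 2.06-fold for Col27a1, 1.63-fold for Col2a1 and 1.43-fold for Col11a1. No overlap with Mut below WT was found for 22.8% of the 14123 genes tested. None of the 8 genes passed an adjusted p of 0.05 in the edgeR quasi-likelihood test, which called 0% of all genes lower and 0% higher. The same test gave an unadjusted p under 0.05 with a lower level in Mut for 7 of the 8 genes, against 6.28% of all genes, and an adjusted p under 0.1 for 5 of them, against 0.496% of all genes. The threshold set for a call was an adjusted p of 0.05, and the level of 0.1 was counted for lower genes only. DESeq2 called the same 7 genes lower at an adjusted p under 0.05, where it called 1.86% of all genes lower. In edgeR, leaving out WT replicate 1, WT replicate 2, Mut replicate 1 or Mut replicate 2 called 4, 5, 5 and 5 of the 8 genes lower, beside 0.999%, 10.3%, 0.634% and 0.27% of all genes, and testing without a filter called 4, beside 0.333%. The median log2 fold change of the 8 genes was -1.45 (edgeR), beside 0.0097 over all genes tested. In bulk RNA, fewer cells that make a collagen and less of its RNA per cell cannot be told apart.

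**Figure D1:**
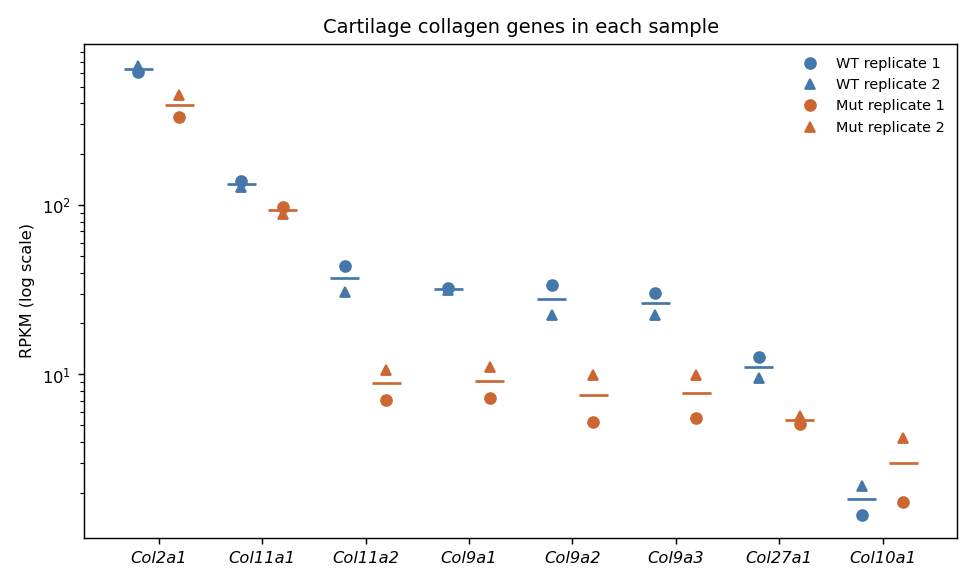
RPKM on a log axis of each cartilage collagen gene, with WT samples in blue, Mut samples in orange, circles for replicate 1, triangles for replicate 2 and a bar at the mean of each group. Both Mut samples lie below both WT samples for 7 genes, and for Col10a1 the WT value of 2.21 lies between the Mut values of 1.76 and 4.24.

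Col2a1 (chromosome 15, 97975602 to 98004695, minus strand, GRCm38), which encodes the only chain of type II collagen, was the most abundant of the 8 genes in every sample. Its RPKM, the read count scaled to the gene length and to the total of counted reads, was 609 and 659 in WT and 334 and 445 in Mut. All Mut values were below all WT values, and the lower WT sample was 1.37-fold above the higher Mut sample. The mean was 634 ± 35.5 (SD, n = 2) in WT and 389 ± 79.1 (SD, n = 2) in Mut. The log2 fold change was -0.75 (SE 0.16) with an adjusted p of 0.114 (edgeR). Col2a1 made up 67.6% and 72.8% of the summed RPKM of the 8 genes in WT and 72.1% and 76.0% in Mut, while that sum was 902 and 906 in WT and 463 and 586 in Mut. The ratio of Col2a1 to Col1a1 RPKM was 0.0840 and 0.133 in WT and 0.0691 and 0.135 in Mut. The groups thus overlapped in the ratio of type II to type I collagen RNA, with a two-sided exact permutation p of 1 over the 4 samples. This ratio covers Col2a1 alone, and none is given for the other cartilage collagens. The ratio to Col1a1 did not overlap between groups, in either direction, for 54.4% of all genes.

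Type IX collagen is assembled from the products of Col9a1 (chromosome 1, 24177610 to 24252684), Col9a2 (chromosome 4, 121039385 to 121055322) and Col9a3 (chromosome 2, 180597790 to 180622189), all on the plus strand of GRCm38. Col9a1 had an RPKM of 32.2 and 31.7 in WT and 7.29 and 11.1 in Mut. Col9a2 had an RPKM of 33.7 and 22.5 in WT and 5.26 and 9.93 in Mut. Col9a3 had an RPKM of 30.1 and 22.5 in WT and 5.57 and 9.94 in Mut. In each gene Mut replicate 1 was the lowest sample, and the lower WT sample exceeded the higher Mut sample by 2.86-fold for Col9a1, 2.27-fold for Col9a2 and 2.26-fold for Col9a3. The log2 fold change was -1.85 (SE 0.20, adjusted p of 0.0739) for Col9a1, -1.94 (SE 0.33, adjusted p of 0.0873) for Col9a2 and -1.81 (SE 0.29, adjusted p of 0.0833) for Col9a3 (edgeR). The 3′ end of Col9a3 shares 234 bases with exons of Tcfl5 on the other strand, and the sources used here do not say whether reads were assigned by strand.

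The RPKM ratios between the 3 type IX genes lay between 0.946 and 1.41 in all samples. The ratio of Col9a1 to Col9a3 was 1.07 and 1.41 in WT and 1.31 and 1.11 in Mut, and the groups overlapped. The ratio of Col9a2 to Col9a3 was 1.12 and 1.002 in WT and 0.946 and 0.999 in Mut, a log2 difference of -0.12 with a permutation p of 0.333, the smallest that an exact two-sided test of 2 against 2 samples can give. For 97.9% of all genes the ratio to Col9a3 did not overlap between the groups. The summed RPKM of the 3 genes was 96.0 and 76.7 in WT and 18.1 and 30.9 in Mut, and no chain held less than 29.0% or more than 41.3% of that sum in any sample.

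The type XI genes differed from each other. Col11a1 (chromosome 3, 114030540 to 114220718, plus strand, GRCm38) had an RPKM of 139 and 127 in WT and 97.0 and 89.0 in Mut. Its mean was 133 ± 8.14 (SD, n = 2) in WT and 93.0 ± 5.67 (SD, n = 2) in Mut, and its log2 fold change of -0.56 (SE 0.14, adjusted p of 0.137, edgeR) was the smallest in size among the 8 genes. Col11a2 (chromosome 17, 34039437 to 34066685, plus strand, GRCm38) encodes the partner chain of the same trimer, whose remaining chain is a product of Col2a1. Col11a2 had an RPKM of 43.8 and 30.8 in WT and 7.10 and 10.6 in Mut. The Mut values were far below the WT values, with 2.90-fold between the nearest pair. Its log2 fold change was -2.12 (SE 0.26, adjusted p of 0.0739, edgeR), the largest in size among the 8 genes and the 57th lowest of the 14123 genes tested.

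The share of Col11a2 in the summed RPKM of the type XI genes was 24.0% and 19.5% in WT and 6.82% and 10.7% in Mut. The ratio of Col11a1 to Col11a2 was 3.17 and 4.13 in WT and 13.7 and 8.37 in Mut, a log2 difference of 1.56 between group means with SDs of 0.27 and 0.50. Both Mut ratios were above both WT ratios, with an exact permutation p of 0.333. The ratio to Col11a2 did not overlap between groups for 98.7% of all genes, so that the separation by itself is common. With 3 ratios chosen after their values were seen, 7 ratios were computed in all. Among these 3, Col2a1 to Col11a1 was 4.39 and 5.18 in WT and 3.44 and 5.00 in Mut, which overlapped, while 83.7% of all genes had a ratio to Col11a1 that did not. Col2a1 to Col9a1 was 18.9 and 20.8 in WT and 45.7 and 40.2 in Mut, and the ratio to Col9a1 did not overlap for 97.9% of all genes.

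**Figure D2:**
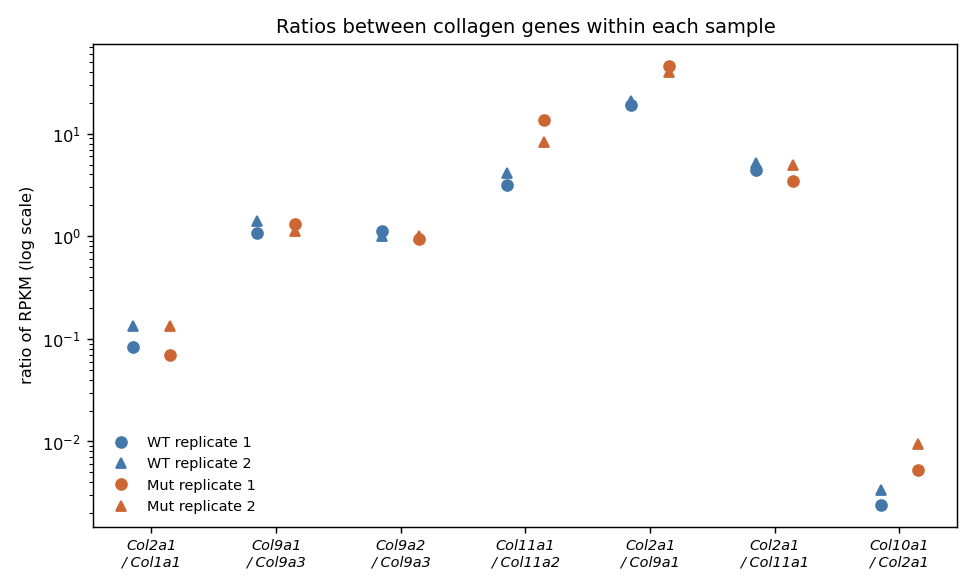
Ratio of the RPKM of pairs of collagen genes within each sample, on a log axis, with WT in blue and Mut in orange. The ratios of Col9a1 and Col9a2 to Col9a3 lie between 0.946 and 1.41, whereas Col11a1 to Col11a2 is 3.17 and 4.13 in WT and 13.7 and 8.37 in Mut.

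Col27a1 (chromosome 4, 63214004 to 63334991, plus strand, GRCm38) had an RPKM of 12.6 and 9.51 in WT and 5.09 and 5.68 in Mut. The Mut samples lay close together and below both WT samples, by 1.67-fold for the nearest pair. The mean was 11.1 ± 2.22 (SD, n = 2) in WT and 5.38 ± 0.415 (SD, n = 2) in Mut, and the log2 fold change was -1.09 (SE 0.18, adjusted p of 0.0872, edgeR). An intron of Col27a1 hosts Mir455, a microRNA gene of cartilage, whose mature product was not measured by this assay.

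Col10a1 (chromosome 10, 34389981 to 34397085, plus strand, GRCm38), the marker of hypertrophic chondrocytes, was the least abundant of the 8 genes and differed from the others in its pattern. It had 97 and 181 counts in WT and 171 and 376 counts in Mut, or an RPKM of 1.47 and 2.21 in WT and 1.76 and 4.24 in Mut. Mut replicate 2 was the highest sample, and Mut replicate 1 lay between the WT samples. The log2 fold change was 0.65 (SE 0.42, adjusted p of 0.527, edgeR), and without Mut replicate 2 it was -0.08. Reads covered 79.2% to 95.0% of its length, compared with at least 93.5% for the other 7 genes. Col10a1 lies inside the gene Nt5dc1, which is read from the other strand, and shares 18 exon bases with it. Nt5dc1 had an RPKM of 2.82 and 3.80 in WT and 3.46 and 3.22 in Mut. Whether reads of Nt5dc1 were counted for Col10a1 was not tested. Relative to Col2a1, Col10a1 was at 0.00241 and 0.00335 in WT and 0.00527 and 0.00952 in Mut, where 86.5% of all genes had a ratio to Col2a1 that did not overlap. This ratio did not overlap either, with Mut above WT and a permutation p of 0.333.

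**Figure D3:**
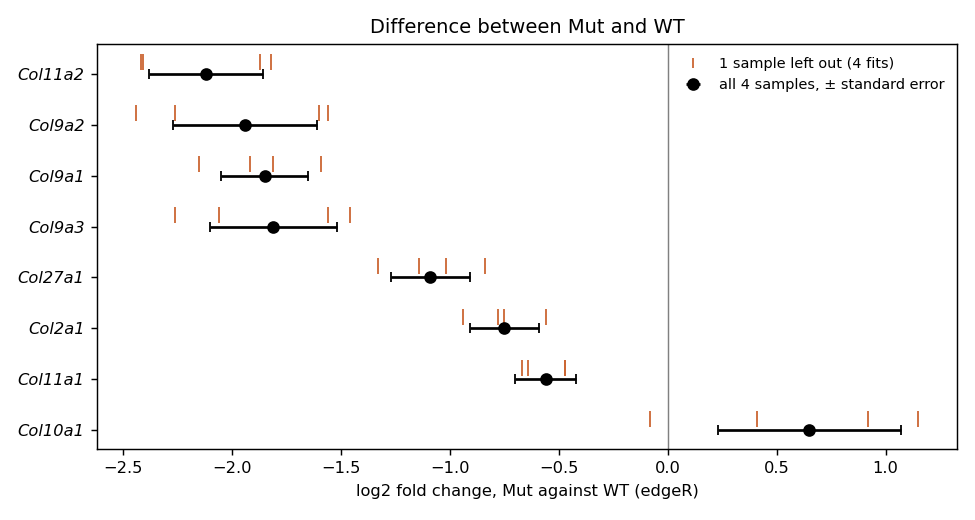
Log2 fold change of each gene between Mut and WT from edgeR with its standard error (black), and the values when each of the 4 samples is left out in turn (orange ticks). For 7 genes all values lie below 0, from -2.44 for Col9a2 to -0.47 for Col11a1, and for Col10a1 they run from -0.08 to 1.15.

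The order of the mean RPKM in WT was Col2a1, Col11a1, Col11a2, Col9a1, Col9a2, Col9a3, Col27a1 and Col10a1. From Col11a2 to Col9a3, each gene overlapped in range with its neighbour in this order, in WT and in Mut, whereas Col2a1 and Col11a1 stood above them in all samples. In Mut the ranges of Col27a1 and of the type IX genes Col9a2 and Col9a3 overlapped as well, as they did not in WT. The genes whose profile over the 4 samples was most like the mean profile of the 8 genes were Mterfd2, Mest, Cxcl5, Plekhg4 and Slc1a3, out of 5799 genes with a mean log2 CPM of at least 5. Their Euclidean distance in centred log2 CPM over 4 samples was 0.286 to 0.436. Among the members themselves the distance ran from 0.369 for Col27a1 to 1.90 for Col10a1. Slc1a3, a glutamate transporter, had an RPKM of 17.5 and 18.6 in WT and 5.76 and 7.03 in Mut, and Mest, an imprinted gene, had 621 and 417 in WT and 189 and 273 in Mut.

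Other genes of the cartilage matrix were lower along with the collagens. Of 18 such genes tested, 16 were lower in both Mut samples than in both WT samples and none was higher in both, and 11 had an unadjusted p under 0.05 in the lower direction (edgeR), beside the 22.8% and 6.28% of all genes given above. The median log2 fold change of the 18 genes was -1.48. The gap was narrow for some of the 16. In RPKM the lower WT sample was 1.009-fold above the higher Mut sample for Fmod, 1.016-fold for Acan, 1.048-fold for Prelp and 1.074-fold for Papss2. No gene of any list had an adjusted p under 0.05 in edgeR with all 4 samples, the filter and no block on replicate number. DESeq2 called 10 of these 18 genes lower, beside 1.86% of all genes. With a block on replicate number, edgeR called 2 of the 18 lower, beside 0.234% of all genes. Matn1, which encodes the cartilage protein matrilin 1, had the lowest value, with an RPKM of 2.71 and 1.82 in WT and 0.145 and 0.371 in Mut and a log2 fold change of -3.18 (SE 0.49, adjusted p of 0.0833, edgeR). The value came from 114 and 95 counts in WT and 9 and 21 counts in Mut. It was -2.66 without Mut replicate 1, -3.96 without Mut replicate 2 and -1.37 in limma on log2(RPKM + 1). Acan, which encodes aggrecan, the large proteoglycan that holds water in cartilage, had an RPKM of 16.8 and 28.2 in WT and 16.5 and 15.1 in Mut. WT replicate 1 was thus close to the Mut samples for Acan, with a log2 fold change of -0.54 (SE 0.23, adjusted p of 0.326, edgeR) that was -0.19 without WT replicate 2 and -0.85 without WT replicate 1.

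Among known regulators of these genes, 11 of 15 were tested, of which 1 had an unadjusted p under 0.05 in the lower direction, where 6.28% of all genes did. The median log2 fold change was -0.16, and -0.02 without WT replicate 1, -0.10 without WT replicate 2 and -0.11 without Mut replicate 2. The 1 gene was Sox9, with an RPKM of 45.6 and 31.3 in WT and 24.7 and 23.1 in Mut and a log2 fold change of -0.73 (SE 0.21, adjusted p of 0.173, edgeR) that was -0.41 without WT replicate 1. Sox5 had an RPKM of 1.56 and 2.31 in WT and 2.34 and 2.81 in Mut. Sox6 had an RPKM of 2.56 and 2.61 in WT and 2.55 and 2.79 in Mut, and its groups overlapped. Of the 10 genes of hypertrophic cartilage other than Col10a1, 8 were tested, with 6 lower and 2 higher in both Mut samples, beside 22.8% and 25.4% of all genes. Among the 6, the lower WT sample was only 1.02-fold above the higher Mut sample in RPKM for Mmp13 and 1.017-fold for Phex. The median of the 8 genes was -0.82, and -0.44 without WT replicate 1 and -1.28 without WT replicate 2. Ibsp, a sialoprotein of mineralizing matrix, had the lowest value, at an RPKM of 70.7 and 16.7 in WT and 4.62 and 11.8 in Mut, and its log2 fold change of -2.48 was -1.06 without WT replicate 1. Vegfa, the angiogenic factor, had the highest, at 14.6 and 20.8 in WT and 25.8 and 25.7 in Mut. Mmp13, the collagenase of hypertrophic cartilage, had an RPKM of 48.4 and 55.3 in WT and 27.4 and 47.5 in Mut, and Ihh, with 0 to 3 counts, was not tested.

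The genes that modify, fold and crosslink collagen chains had a median log2 fold change of -0.15, which lay between -0.26 without WT replicate 2 and -0.07 without WT replicate 1. Of these 32 genes, 12 were lower and 4 higher in both Mut samples, beside 22.8% and 25.4% of all genes. Among the 12, Mia3 overlapped in RPKM, at 28.54 and 29.86 in WT and 28.57 and 26.96 in Mut. An unadjusted p under 0.05 was found for 2 of the 32 genes in the lower and 1 in the higher direction, beside 6.28% and 9.29% of all genes (edgeR). Serpinh1, the collagen chaperone of the endoplasmic reticulum, had an RPKM of 1763 and 1398 in WT and 1379 and 1194 in Mut. Colgalt2, a collagen galactosyltransferase, had the lowest log2 fold change (-1.66) from 11 to 42 counts, and Loxl4, a crosslinking oxidase, the highest (0.71), and without WT replicate 1 these were -1.02 and 0.43. The 6 fibrillar collagen genes outside cartilage had a median of -0.58, and -0.09 without WT replicate 1, -0.36 without Mut replicate 2 and -0.93 without WT replicate 2. Of these 6 genes, 3 were lower in both Mut samples, beside 22.8% of all genes. Col1a1 had an RPKM of 7253 and 4961 in WT and 4828 and 3311 in Mut, with a log2 fold change of -0.63 (SE 0.27, adjusted p of 0.332, edgeR), and Col3a1 had the lowest log2 fold change of the 6, at -0.83. Without WT replicate 1 these values were -0.30 and -0.47, without Mut replicate 2 -0.36 and -0.45, and without Mut replicate 1 -0.94 and -1.32. Of 12 collagen-degrading enzymes and collagen receptors tested, 5 were lower and 1 higher in both Mut samples, beside 22.8% and 25.4% of all genes. Among the 5, Mmp2 overlapped in RPKM, at 306 and 253 in WT and 236 and 258 in Mut. The median of the 12 genes was -0.23, and -0.07 without WT replicate 1 and -0.41 without WT replicate 2. Itga10, a collagen-binding integrin of chondrocytes, had the lowest log2 fold change (-1.19) and Ddr1, a receptor kinase for collagen, the highest (0.44, and 0.17 without WT replicate 2 and 0.74 without WT replicate 1).

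**Figure D4:**
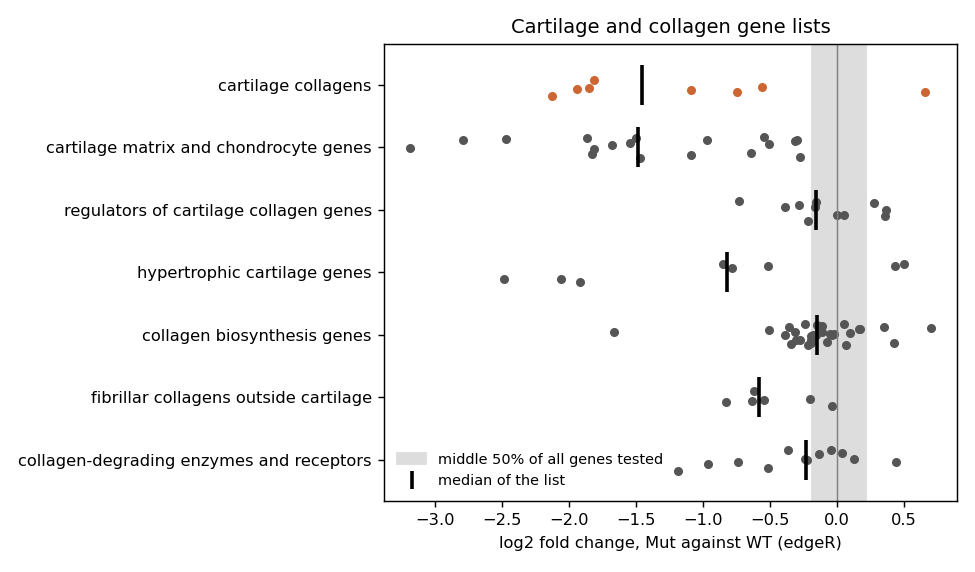
Log2 fold change between Mut and WT (edgeR) of each tested gene of 7 lists, with the median of each list as a black bar and the middle 50% of all genes tested, from -0.19 to 0.22, in grey. The cartilage collagens (orange) and the cartilage matrix genes have medians of -1.45 and -1.48, and the biosynthesis genes have a median of -0.15.

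Markers of other cell types in the cultures also differed between the samples, and their part in the collagen values was not tested. Of 12 striated muscle genes, 9 were higher in both Mut samples and none was lower, where 25.4% of all genes were higher in both, and 7 had an unadjusted p under 0.05 in the higher direction, where 9.29% of all genes did (edgeR), with a summed RPKM of 41.7 to 132 in WT and 231 to 253 in Mut. The median log2 fold change of the muscle genes was 1.49, and 3.04 without WT replicate 1 and 0.69 without WT replicate 2. Actc1, the cardiac actin, had the highest log2 fold change at 1.85, which was 1.16 without WT replicate 2 and 3.03 without WT replicate 1, and Ckm, the muscle creatine kinase, the lowest at -1.49 from 1 to 45 counts, which was 3.18 without WT replicate 1. Of 10 markers of perichondrium and fibroblasts, 4 were lower and 2 higher in both Mut samples, beside 22.8% and 25.4% of all genes, with a summed RPKM, Col1a1 included, of 9477 to 13220 in WT and 7336 to 9742 in Mut, and Dpt and Thy1 had log2 fold changes of -2.13 (-1.41 without WT replicate 1) and 1.32. Of 8 osteoblast markers, with Ibsp and Col1a1 among them, 5 were tested and 4 were lower in both Mut samples, beside 22.8% of all genes. Their summed RPKM of 4986 to 7337 in WT and 3331 to 4837 in Mut was almost all Col1a1, and Bglap was at 0 in some samples. All 5 tested of 9 macrophage and blood markers were lower in both Mut samples in CPM, beside 22.8% of all genes. In RPKM the groups overlapped for Cd68, at 4.20 and 5.31 in WT and 3.30 and 4.25 in Mut. The macrophage and blood markers had a summed RPKM of 15.3 to 17.4 in WT and 6.91 to 10.8 in Mut. Lyz2 was the lowest at a log2 fold change of -1.43, Hbb-b1 had no read and Hba-a1 was at 0 in some samples. The 4 tested of 5 endothelial markers ran from -1.74 for Tek to 1.32 for Kdr, with a summed RPKM of 0.891 to 1.52 in WT and 0.929 to 1.04 in Mut.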

How the data were processed

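RNA of 2 WT and 2 Mut samples of cultured cells was sequenced by BGI. Raw read counts per gene were deposited, with their RPKM (counts scaled to gene length and to the total of counted reads). The coverage of each gene, in percent of its length, was deposited too. Per the labels' processing notes the build was mm9 and SAMtools was used. The aligner, the counting tool and strandedness are not given in the sources used here. Genes absent from a sample's list were given a count of 0. The authors' files hold no coordinates, so gene positions came from GENCODE on GRCm38 by gene symbol and promoters from RefSeq.

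The 8 genes were taken by symbol. Counts were tested with edgeR 4.0.16 (R 4.3.3; TMM normalization, robust quasi-likelihood, a minimum of 10 counts in 2 or more samples) and Benjamini-Hochberg adjustment over 14123 genes. Each SE given with an edgeR value was computed as the size of the log2 fold change divided by the square root of the test's F statistic. Ratios used RPKM and an exact permutation test. Named outside the 8 were set genes, the genes of each list with the lowest and highest log2 fold change and the 5 most similar profiles, and Nt5dc1 and Xist, chosen after their values were seen. The members and gene lists were chosen with earlier results of these data known. Alternatives were DESeq2 1.42.0, other scaling and filters, limma 3.58.1 on log2 RPKM, a replicate block and leaving out each sample. The scripts were tested on simulated data. Depth was 21015873 to 30994579 reads, and replicates of a group differed by more than sampling noise (chi-square over degrees of freedom of 48.6 in WT and 23.7 in Mut).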

Additional observations from a re-analysis of the deposited data

How the results depend on the processing

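The direction of 7 cartilage collagens held under all 12 alternatives, and Col10a1 ran from -0.08 without Mut replicate 2 to 1.15 without Mut replicate 1. The number of calls depended on the fit: edgeR called 0 genes, whereas DESeq2 called 434 higher and 263 lower with 7 of the 8 collagens, testing without a filter called 225 and 61 with 4 collagens (Col9a1, Col9a3, Col11a2 and Col27a1), and scaling by total counts alone called 6 and 2 with none. DESeq2 size factors in edgeR, at least 10 counts in every sample and limma on log2(RPKM + 1) or log2(RPKM + 0.1) called 0, and 1312 higher and 887 lower genes had an unadjusted p under 0.05 in edgeR. Leaving out 1 sample gave 68 to 1296 higher and 37 to 1444 lower genes and 4 to 5 collagens. Without WT replicate 1 these were Col2a1, Col9a1, Col11a2 and Col27a1, without WT replicate 2 Col11a1 in addition, and without either Mut replicate Col9a1, Col9a2, Col9a3, Col11a2 and Col27a1. Such fits leave a lone sample that is assumed to vary like the other group. The cause was not tested.

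Gene by gene, the gap from replicate 2 to replicate 1 in WT was set against that in Mut, which gave a correlation of -0.0423. This value showed no pairing common to all genes. With 2 samples per group it cannot exclude pairing by replicate number for some genes. Blocking on that number called 84 higher and 33 lower genes (0.234% of those tested), 2 collagens, Col9a1 and Col11a2, among them.

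The log2 ratio of Col2a1 to Col1a1 turned from -0.13 to 0.20 without WT replicate 2 and 0.35 without Mut replicate 1 (lowest -0.61), that of Col9a1 to Col9a3 from -0.03 to 0.17 without WT replicate 2 and 0.09 without Mut replicate 2 (lowest -0.22), and that of Col2a1 to Col11a1 from -0.20 to 0.07 without Mut replicate 1 (lowest -0.47). Ckm was at 3.18 without WT replicate 1 and -2.55 without WT replicate 2. Sox6 was at -0.01 in DESeq2, with its size factors and without a filter, and at -0.04 without WT replicate 2 or Mut replicate 2 (highest 0.06). Nt5dc1 was at 0.01 by total counts, 0.02 and 0.03 in limma, 0.15 without WT replicate 2 and 0.05 without Mut replicate 2 (lowest -0.21). With 97 to 376 counts, Col10a1 had the least depth of the 8 genes.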
